A study of Homo sapiens with 4 samples.

Results

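Adhesion G protein-coupled receptors are cell-surface receptors with a long extracellular part joined to a seven-pass membrane domain. The members were the 32 listed human genes of this family, taken by gene symbol or older alias and matched by Entrez identifier, with the brightest probe set standing for each gene. Named probe sets were found for 19 of the 32 genes, 1 probe set each, among 18603 probe sets on the array. The other 13 genes (ADGRB3, CELSR3, ADGRD2, ADGRE1, ADGRE3, ADGRF1, ADGRF2, ADGRF3, ADGRF4, ADGRG4, ADGRG5, ADGRG7 and ADGRL4) were not analysed here. Probe sets were chosen by their mean signal over the 4 arrays, the measured value in the rule, which decided nothing here because each gene had 1 probe set. The family was chosen with the difference of ADGRG1 already known, so that difference is given as a description.

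Total RNA of MDA-MB-231, an established human breast carcinoma line with mesenchymal features, was measured on 4 Affymetrix arrays. In 2 arrays the cells were labelled as transfected with shDROSHA, a short hairpin RNA against the ribonuclease that cuts primary microRNA transcripts, and in 2 with shNC. The design text calls the controls mock-transfected, and which description holds was not settled here. Both groups were grown in L-15 medium with serum, and the labels do not say whether the hairpin cells were a pool or a clone. All results come from this line, and the labels name no second hairpin against DROSHA.

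In these receptors the extracellular part usually holds adhesion modules and a domain in which the protein cuts itself. The cut leaves a tethered peptide that can activate the membrane domain when a ligand or a mechanical force exposes it. Many members couple to G proteins of the G12/13 and Gs classes and through them to cyclic AMP and other intracellular signals. They are known for roles in brain development, myelination, planar cell polarity, leukocyte adhesion, and in the attachment and motility of tumour cells.

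DROSHA signal was 8.71 and 8.74 (log2) with shDROSHA and 9.66 and 9.76 with shNC, a 1.98-fold decrease that matched the labels. Array medians lay between 7.21 and 7.25. The line's markers VIM, CD44, AXL, ZEB1, CAV1 and LGALS1 gave signals of 9.45 to 12.37 and none was below the median of all probe sets, 7.22. Of these markers AXL rose by 0.33 and CAV1 fell by 0.23 on the log2 scale (adjusted p = 0.00442 and 0.0031, trended limma fit), and the other 4 did not pass. All 4 measured leukocyte markers of 6 (PTPRC, CD3E, CD14 and CSF1R) and all 5 measured endothelial markers of 6 (PECAM1, CDH5, VWF, EMCN and CLDN5) were below that median. Of the 5 measured luminal epithelial markers of 6, EPCAM, ESR1 and GATA3 were below it, while the keratins KRT8 and KRT18 gave 11.40 to 11.61 and 10.90 to 11.13. Both keratins were higher on both shDROSHA arrays, by 0.14 and 0.16 on the log2 scale, and neither passed (adjusted p = 0.0938 and 0.0791, trended limma fit). Of the 6 neuronal markers 5 were below the median and GAD1 was above it at 9.06 to 9.22, and 0 passed (limma, 0 at an unadjusted p under 0.05). Array signals carry a background, so no marker is at 0, and signals of different probe sets also reflect their probes.

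Among the 19 measured receptors 2 fell in the cells with shDROSHA, ADGRG1 and ADGRF5, and 0 rose. The remaining 17 did not pass the test, with differences of -0.44 to 0.47 (log2, shDROSHA minus shNC). The test was limma with a prior spread that varies with signal (the trended fit), at a Benjamini-Hochberg adjusted p of 0.05 over all probe sets. In the same fit 6.41% of all probe sets were called, 3.28% lower and 3.12% higher, against 2 of 19 receptors (10.5%), or 1 of 18 (5.56%) without ADGRG1. Lower and higher members were about equally many, 10 and 9, and their median difference was -0.01 against 0.0009 over all probe sets. A second limma fit, in which every probe set had the same prior spread (the constant fit), called 0 of the 19 and 0.00538% of all probe sets. At an unadjusted p under 0.05 it had 4 of the 19 and 14.9% of all probe sets, against 5 of the 19 and 19.3% in the trended fit.

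**Figure D1:**
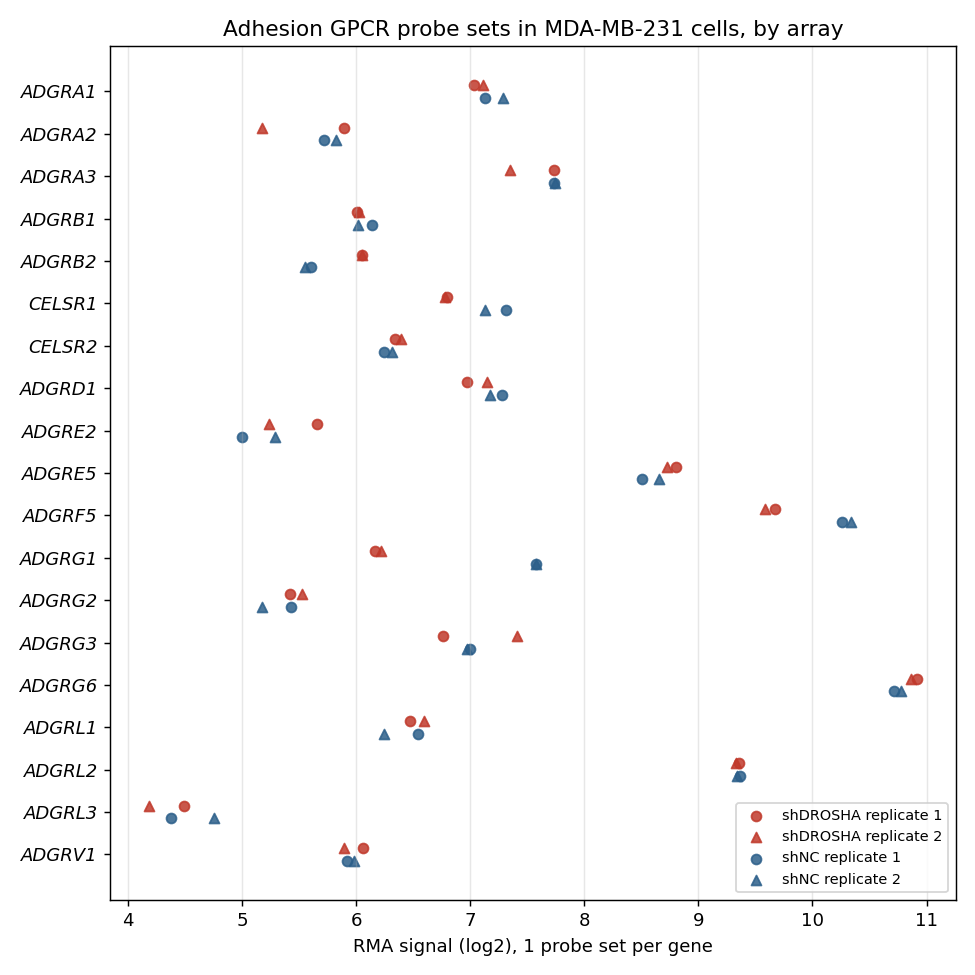
Log2 RMA signal (x axis) of the 19 measured adhesion receptors (rows) on each array; red points are the 2 shDROSHA arrays and blue points the 2 shNC arrays, with circles for replicate 1 and triangles for replicate 2. The red points of ADGRG1 and ADGRF5 lie well to the left of the blue ones, while those of ADGRL2 coincide with them; signals are compared within a row only.

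ADGRG1, also known as GPR56, is a receptor for collagen III and transglutaminase that couples to G12/13 and is needed for the layering of the cerebral cortex. Its signal was 6.16 and 6.22 with shDROSHA and 7.57 and 7.58 with shNC. The 2 knockdown arrays were both low, the 2 controls nearly equal, and the groups did not overlap. Group means were 6.19 ± 0.039 and 7.57 ± 0.0016 (log2 mean ± SD, n = 2 each), a 2.61-fold decrease with a log2 difference of -1.39 and a 95% interval of -1.66 to -1.11 in the trended fit. Of all 18603 probe sets 4, ADGRG1 included, had a difference this low or lower. In the constant limma fit the adjusted p of ADGRG1 was 0.0617, which did not pass. Its shDROSHA mean was below the median of all probe sets, 7.22, where a signal can be largely background. With each array left out in turn the difference was -1.41 to -1.36.

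ADGRF5, also known as GPR116, limits surfactant secretion in the alveolar epithelium of the lung and is also expressed in endothelium. Its signal was 9.67 and 9.58 with shDROSHA and 10.26 and 10.34 with shNC. Both knockdown arrays lay below both controls by more than the spread within either group. The means were 9.63 ± 0.067 and 10.3 ± 0.056 (log2 mean ± SD, n = 2 each), a 1.59-fold decrease with a log2 difference of -0.67, an SE of 0.063 and an adjusted p of 3.28e-05 in the trended limma fit. In the constant limma fit the adjusted p was 0.147, and with single arrays left out the difference was -0.72 to -0.62. Of the endothelial markers 0 of 5 passed (trended limma fit, 0 at an unadjusted p under 0.05 in either fit), with differences of -0.11 to 0.34. Their log2 signals added up to 29.995 to 30.05 with shDROSHA against 29.61 to 29.75 with shNC. PECAM1, at 0.34, had the largest difference, and its groups overlapped. All 5 were below the median of all probe sets, where a signal can be largely background. These markers and their sums therefore do not bear on the fall of ADGRF5.

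The 300 bases around a start site, 250 before and 50 after it, are printed for ADGRG1 and ADGRF5. Those of ADGRG6, a receptor that did not pass, are given beside them. Whether ADGRG1 and ADGRF5 share any control was not tested. Where a gene had several start sites the first listed was taken. Sequences are RefSeq's on GRCh38.p14, read 5′ to 3′ on the gene's strand, and capitals mark each CG dinucleotide.
ADGRG1, chr16:57619488-57619787, plus strand: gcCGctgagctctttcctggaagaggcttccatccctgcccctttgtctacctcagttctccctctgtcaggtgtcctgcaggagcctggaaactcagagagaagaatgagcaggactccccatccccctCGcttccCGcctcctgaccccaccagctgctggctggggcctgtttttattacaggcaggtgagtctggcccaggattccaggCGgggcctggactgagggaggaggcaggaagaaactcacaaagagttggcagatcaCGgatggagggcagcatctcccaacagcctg
ADGRF5, chr6:46954890-46955189, minus strand: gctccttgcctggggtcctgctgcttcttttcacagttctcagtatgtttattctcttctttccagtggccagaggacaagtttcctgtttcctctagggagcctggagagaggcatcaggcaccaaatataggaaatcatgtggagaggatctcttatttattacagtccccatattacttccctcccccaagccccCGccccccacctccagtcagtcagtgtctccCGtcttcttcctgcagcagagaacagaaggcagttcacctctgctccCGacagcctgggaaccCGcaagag
ADGRG6, chr6:142301757-142302056, plus strand: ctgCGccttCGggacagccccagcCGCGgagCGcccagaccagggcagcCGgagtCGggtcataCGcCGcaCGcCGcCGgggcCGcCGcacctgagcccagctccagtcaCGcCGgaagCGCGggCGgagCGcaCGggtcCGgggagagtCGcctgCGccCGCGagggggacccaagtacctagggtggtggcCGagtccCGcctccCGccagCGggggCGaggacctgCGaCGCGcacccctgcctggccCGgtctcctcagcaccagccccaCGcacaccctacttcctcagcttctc
The window of ADGRG1 held 5 CG dinucleotides, that of ADGRF5 4 and that of ADGRG6 36. Across all 5 listed windows of ADGRG1 and ADGRF5 the count was 4 to 8, a feature singled out after the values were seen. Of 18 windows of 9 other members 2, both of ADGRL2, held as few, and ADGRL2 did not pass (log2 difference -0.01). Windows with at most 8 made up 41.6% of all 35116 windows in the table, whose median was 14, so such windows are common. A GC box (GGGCGG, both strands) stood in 12 of the 23 windows of 11 measured members (52.2%, against 45% of all windows) and a TATA box (TATAAA, both strands) in 1 (4.35% against 11.5%). ADGRF5's first window had 1 GC box, and the windows of ADGRG1 had no match to either motif. The arrays did not measure these regions, and windows of a gene can overlap.

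ADGRG1 belongs to subfamily VIII with ADGRG2, ADGRG3 and ADGRG6, and the other 3 measured members did not pass. ADGRG6, also known as GPR126, binds collagen IV and laminin and is needed for Schwann cells to myelinate. Its signal was 10.92 and 10.86 with shDROSHA and 10.71 and 10.77 with shNC. The groups did not overlap, yet the log2 difference was small at 0.15 (95% interval 0.04 to 0.26) and missed the threshold (adjusted p = 0.112 in the trended limma fit).

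ADGRG3, or GPR97, a receptor of granulocytes, is the next protein-coding gene after ADGRG1 on chromosome 16 in the RefSeq order. Its signal was 6.76 and 7.41 with shDROSHA and 7.001 and 6.97 with shNC. The knockdown arrays lay on either side of the controls, and the difference of 0.10 (95% interval -0.28 to 0.48) became -0.23 without shDROSHA replicate 2 and 0.43 without shDROSHA replicate 1. ADGRG2, or GPR64, a receptor of the epididymal duct, overlapped between groups with a difference of 0.17 (95% interval -0.21 to 0.56).

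**Figure D2:**
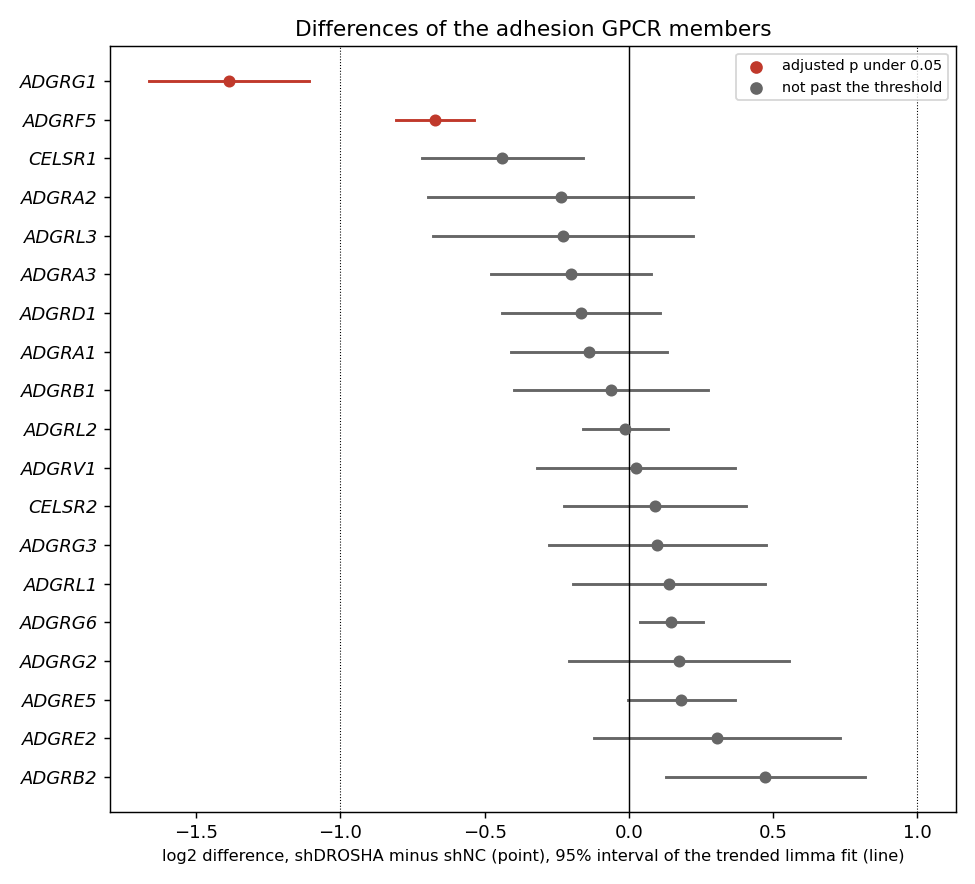
Log2 difference, shDROSHA minus shNC (x axis), of each measured receptor (rows, sorted), with the 95% interval of the trended limma fit; red marks an adjusted p under 0.05 and dotted lines mark 2-fold. ADGRG1 at -1.39 and ADGRF5 at -0.67 are red, and the other 17 points lie between -0.44 and 0.47.

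CELSR1 and CELSR2 are seven-pass cadherins that align cells in the plane of an epithelium. CELSR1 gave 6.79 and 6.78 with shDROSHA and 7.32 and 7.13 with shNC, so its groups did not overlap. Its difference of -0.44 (SE 0.13, 95% interval -0.72 to -0.16) had an unadjusted p of 0.00467 and an adjusted p of 0.0638 in the trended limma fit, which missed the threshold. CELSR2 gave 6.34 and 6.39 against 6.24 and 6.31, a difference of 0.09 (95% interval -0.23 to 0.41).

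ADGRB1 and ADGRB2, the brain angiogenesis inhibitors BAI1 and BAI2, stand in subfamily VII, and ADGRB1 helps phagocytes to engulf apoptotic cells. ADGRB2 gave 6.05 and 6.05 with shDROSHA and 5.60 and 5.55 with shNC. Its difference of 0.47 (SE 0.161, 95% interval 0.13 to 0.82) was the highest of the 19, with no overlap between groups, and its adjusted p was 0.105 in the trended limma fit. ADGRB1 differed by -0.06 (95% interval -0.40 to 0.27) with overlapping groups.

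Of subfamily III, ADGRA2 is a co-receptor of Wnt7 signals in brain endothelium. Its signal was 5.89 and 5.17 with shDROSHA and 5.71 and 5.82 with shNC, and the difference of -0.24 rested on the low shDROSHA replicate 2, becoming 0.12 without it. ADGRA3 gave 7.73 and 7.35 against 7.74 and 7.74. Its difference of -0.20 (95% interval -0.48 to 0.08) again came from shDROSHA replicate 2: it was -0.01 without that array, and -0.39 with a call (adjusted p = 0.0471, trended limma fit) without shDROSHA replicate 1. ADGRA1 was 7.03 and 7.11 against 7.13 and 7.29, a difference of -0.14 (95% interval -0.41 to 0.13).

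ADGRE5, the leukocyte antigen CD97, binds CD55 and is found on many carcinoma cells. It gave 8.80 and 8.73 with shDROSHA and 8.50 and 8.66 with shNC. The groups did not overlap, and the difference of 0.18 had a 95% interval of -0.004 to 0.37 and an adjusted p of 0.271 in the trended limma fit. ADGRE2, a myeloid receptor whose EGF modules closely resemble those of ADGRE5 so that probes may not tell them apart, differed by 0.31 (95% interval -0.12 to 0.73) with overlapping groups.

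The latrophilins ADGRL1, ADGRL2 and ADGRL3 bind teneurins and FLRT proteins at synapses and between other cells. ADGRL2 gave 9.35 and 9.33 with shDROSHA and 9.36 and 9.34 with shNC. The 4 values interleave. In the trended fit the interval of its difference, -0.16 to 0.14 around -0.01, leaves out a 1.5-fold change of signal in either direction. ADGRL1 differed by 0.14 (95% interval -0.19 to 0.47) and ADGRL3 by -0.23 (95% interval -0.68 to 0.22), both with overlapping groups.

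ADGRD1, or GPR133, a Gs-coupled receptor, gave 6.97 and 7.15 against 7.28 and 7.17, a difference of -0.17 (95% interval -0.44 to 0.11). ADGRV1, the very large receptor of the hair bundles of the inner ear, overlapped between groups at a difference of 0.02 (95% interval -0.32 to 0.37). Across all 19 members the groups did not overlap for 10 (52.6%), against 47.8% of all probe sets. In the trended fit the intervals of 12 of the 17 members that did not pass leave out a change of 1.5-fold or more. Those of all 17 leave out 2-fold. These bounds apply to array signal and not to the transcript. Of the 17 members 13 were below the median signal, where a signal can be largely background. For ADGRA2, ADGRB2, CELSR1, ADGRE2 and ADGRL3 a 1.5-fold change is within the interval.

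Precision followed signal. With probe sets split by signal into 5 equal bins, the trended fit called 0.833% of the dimmest bin and 15.6% of the brightest, with median SEs of 0.194 and 0.062. ADGRL3, ADGRG2 and ADGRE2 were in the dimmest bin and ADGRF5, ADGRG6 and ADGRL2 in the brightest. ADGRG1 was in the middle bin, where 4.7% were called. In all, 14 of the 19 receptors were below the median of all probe sets, where a signal can be largely background.

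**Figure D3:**
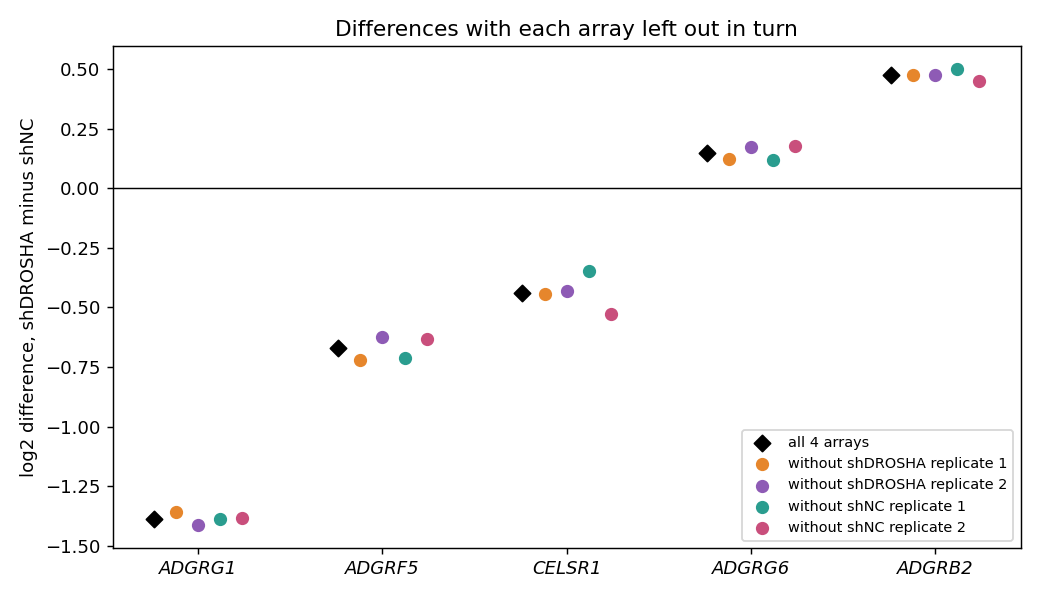
Log2 difference (y axis) of the 5 receptors with an unadjusted p under 0.05 in the trended limma fit, with all 4 arrays (diamonds) and with each array left out (circles). Values of ADGRG1 stay between -1.41 and -1.36 and those of ADGRF5 between -0.72 and -0.62, while CELSR1 ranges from -0.53 to -0.35.

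The partners of these receptors were described by 3 lists. Among ligands and surface partners (collagens, teneurins, FLRT proteins, tetraspanins, integrins and scaffolds), 44 of 51 genes were measured, 0 rose and 1 fell (2.27%, against 6.41% of all probe sets), with a median difference of 0.02. This share is below that of all probe sets, and 27 of the 44 genes were below the median signal. CD81, a tetraspanin found in a complex with ADGRG1, gave 9.37 and 9.31 with shDROSHA and 9.76 and 9.58 with shNC. It fell by 0.33 on the log2 scale (SE 0.075, adjusted p = 0.0169 in the trended limma fit), and did not pass without shNC replicate 1, where the difference was -0.24 (adjusted p = 0.218, limma).

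The next genes of that list did not pass. ITGAV, the integrin alpha v chain, differed by 0.21, and by 0.10 to 0.32 with single arrays left out. PRNP, the prion protein and a ligand of ADGRG6, differed by 0.08. PLLP, a membrane proteolipid of myelin, differed by 0.33, and by 0.08 to 0.58 with single arrays left out. Its place among partners of these receptors is not established. The list's count was 0 without shNC replicate 1, where limma gave 2 at an unadjusted p under 0.05, and 2 without shDROSHA replicate 1 or without shNC replicate 2. COL3A1, the collagen ligand of ADGRG1, was not analysed here, and CD55, the ligand of ADGRE5, differed by -0.06 (95% interval -0.16 to 0.04).

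G proteins and related effectors were measured for 39 of 42 genes. In this list 0 rose and 5 fell (12.8%), against 6.41% of all probe sets called and 3.28% called lower. Of the 39 genes 29 were lower and 10 higher, against 49.8% lower of all probe sets, and the median was -0.07. With 9 of the 39 below the median signal, the list is brighter than the receptors, and brighter probe sets are called more often. GNAZ, a G alpha subunit of the inhibitory class, gave 6.01 and 5.94 with shDROSHA and 6.96 and 6.72 with shNC, a log2 difference of -0.87 (SE 0.152, adjusted p = 0.00361, trended limma fit). Its groups stood well apart, and without shNC replicate 1 the difference was -0.75 with an adjusted p of 0.0568 (limma).

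The stimulatory subunits that raise cyclic AMP were lower too. GNAS gave 10.31 and 10.25 with shDROSHA against 10.60 and 10.60 with shNC, and fell by 0.32 on the log2 scale (SE 0.054, adjusted p = 0.00314, trended limma fit). GNAL, its relative first known from olfactory neurons, gave 6.43 and 6.65 against 7.04 and 7.21 and fell by 0.58 (SE 0.141, adjusted p = 0.0239, limma). For both the groups did not overlap. GNAL did not pass without shNC replicate 1 (adjusted p = 0.0642, limma) or shNC replicate 2 (0.172).

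PRKCA, a protein kinase C, fell by 0.37 (SE 0.09, adjusted p = 0.0252, limma) and GNB2, a G beta subunit, by 0.26 (SE 0.064, adjusted p = 0.0277, limma). PRKCA did not pass without shNC replicate 2 (adjusted p = 0.251, limma), and of the 4 arrays GNB2 could lose only shDROSHA replicate 1 and still pass, with adjusted p-values of 0.0666 to 0.216 (limma) without the others. GNB2 also did not pass with each array centred on its median (adjusted p = 0.0566, limma), where the list's count was 4. GNA15, a G alpha subunit of the Gq class, differed by -0.30 (adjusted p = 0.0593), which missed the threshold. It was called with the replicate number as a block (adjusted p = 0.0204), with 1 probe set per gene (0.0483) and with probe sets dimmer than the median removed (0.0394), all in limma. The threshold was also missed in the constant limma fit (adjusted p = 0.342), with a robust prior (0.0548) and with probe sets below the lower quartile removed (0.0521). The same held with each array centred (0.0937, limma) and with quantile normalization again (0.0611, limma). With single arrays left out the difference of GNA15 was -0.44 to -0.17. GNAQ, of the same class, differed by 0.22 and GNB4 by 0.21, and neither passed. With single arrays left out GNB4 differed by 0.11 to 0.30. Leaving out shNC replicate 1 gave a count of 2 for the list, and leaving out shNC replicate 2 gave 3.

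Of the planar cell polarity partners of the CELSR proteins 25 of 28 were measured, 0 rose and 1 fell (4.0%, against 6.41% of all probe sets), with a median of 0.03. This share too is no higher than that of all probe sets, and 13 of the 25 genes were below the median signal. ANKRD6, a cytoplasmic regulator of Wnt signalling known as diversin, gave 6.69 and 6.71 with shDROSHA against 7.14 and 7.23 with shNC and fell by 0.49 (SE 0.128, adjusted p = 0.0368, trended limma fit). It did not pass without shNC replicate 1 (adjusted p = 0.137, limma), without shNC replicate 2 (0.209) or with each array centred on its median (0.0502). WNT5A, a secreted Wnt ligand, gave 6.10 and 5.68 against 6.26 and 6.75. Its difference of -0.61 was wide in error (95% interval -1.03 to -0.20, adjusted p = 0.0799, limma) and did not pass. The difference ranged from -0.86 to -0.37 with single arrays left out. ROR1, a receptor of WNT5A, differed by 0.13, and VANGL1, a core polarity protein, by 0.19. The list's count was 3 without shDROSHA replicate 1 and 0 without shNC replicate 2 (limma, 2 at an unadjusted p under 0.05).

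**Figure D4:**
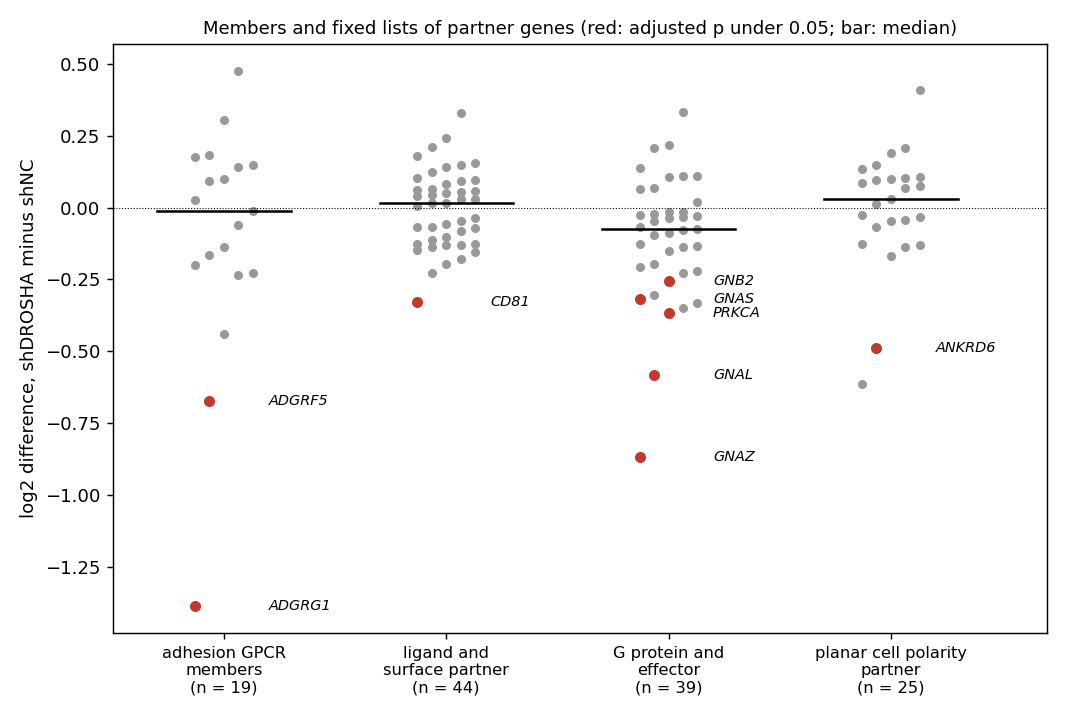
Log2 difference, shDROSHA minus shNC (y axis), of each measured gene in the family and the 3 partner lists (x axis); red points have an adjusted p under 0.05 in the trended limma fit and bars are medians. All 9 red points lie below 0, from GNB2 at -0.26 to ADGRG1 at -1.39, and the medians lie between -0.07 and 0.03.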

How the data were processed

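The 4 arrays were grouped and numbered by their titles, which call the replicates biological; whether they were separate cultures is not stated further. The authors deposited log2 signals, 1 per probe set and array, made with RMA per the submitters' processing notes. RMA corrects background, normalizes between arrays and summarises probes, and it hides a change common to most transcripts. The software version, scan dates and genome build are not given in those sources. Of 18603 probe sets 15886 had 1 gene symbol and were named through the RefSeq table of GRCh38.p14 by Entrez identifier.

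shDROSHA was compared with shNC on all probe sets with limma 3.58.1 in R 4.3.3 (lmFit, eBayes with a trend), Benjamini-Hochberg adjusted, threshold 0.05. The trend was chosen because spread depended on signal (residual SD 0.213 for the dimmest and 0.067 for the brightest of 5 bins). An exact permutation test of 1 gene with 2 arrays against 2 cannot go below 0.333, so calls rest on spread pooled across genes, and the number of arrays limits the precision. Alternatives were a constant or robust prior, filters on dim probe sets, further normalization, the replicate block, 1 probe set per gene, adjusted p 0.10 and leaving out each array. Other probe sets of a member could not be tried, as each had 1. Named were DROSHA, all measured members and, per list, up to 6 genes past the threshold and 3 others with the smallest p; markers and CD55 were added. The members and lists were chosen with earlier results of these data known.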

Additional observations from a re-analysis of the deposited data

How the results depend on the processing

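With 1 constant prior variance in limma the count of receptors past the threshold was 0 (4 at an unadjusted p under 0.05), that of all probe sets 1, that of ligands and surface partners 0 (1 unadjusted), of G proteins and effectors 0 (7 unadjusted) and of planar cell polarity partners 0 (3 unadjusted), and DROSHA, at -0.99, did not pass. Without probe sets below the median signal 1 receptor was called, ADGRF5, since ADGRG1 was among those removed, and 0 polarity partners (3 unadjusted, limma). The polarity count was also 0 with each array centred on its median (5 unadjusted, limma), and 2 at adjusted p 0.10, where all probe sets gave 1824. Centring raised the median difference by 0.033 and the share of higher calls from 48.7% to 62.5%, and ADGRL2 changed sign to 0.021. Leaving out 1 array gave 2 to 3 receptors, 535 to 1949 probe sets, 0 to 2 ligands and surface partners, 2 to 7 G proteins and effectors, 0 to 3 polarity partners and a DROSHA difference of -1.04 to -0.94. Signs changed there for ADGRA2 (-0.59 to 0.12), ADGRB1 (-0.13 to 0.0040), ADGRG3 (-0.23 to 0.43), ADGRL1 (-0.0085 to 0.29), ADGRL2 (-0.024 to 0.00028) and ADGRV1 (-0.059 to 0.11), none of which was called. ADGRF5 passed in each of these alternatives except the constant fit. With the replicate number as a block 2 receptors and 1391 probe sets were called. The deviations of same-numbered arrays correlated at -0.022. Whether same-numbered arrays were made as pairs is not stated in the titles. Apart from the filters and the looser threshold, which act by construction, the causes were not tested.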
